A study of Mus musculus with 6 samples.

Results

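The products of 8 genes mark blood stem cells or early progenitors. These genes, Slamf1, Cd48, Procr, Cd34, Esam, Robo4, Prom1 and Fgd5, were read in common myeloid progenitors (CMP) that contained little or much reactive oxygen species (ROS). The members were fixed by name, and each of the 8 was found on the array: 10 of 45101 probe sets carry the symbol of a member and no other, 3 for Slamf1 and 1 for each of the other 7 genes. CMP were taken from the bone marrow of C57BL6 mice (femurs, tibiae and ilia), with no genetic change and no treatment given in the labels; age and sex are not stated. H2-DCFDA, which fluoresces once ROS have oxidised it, was used as the stain, and the CMP of low and of high fluorescence, each 15% to 20% of all CMP, were sorted. RNA of 3 low-ROS and 3 high-ROS samples was hybridised to 1 array each, and the study asks about ROS in the step from CMP to the progenitors of megakaryocytes and red cells. Nothing states that the samples were drawn from different mice or on different days; the p-values below therefore reflect sample-to-sample spread alone, and that spread could be technical.

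Blood stem cells are recognised by combinations of surface proteins rather than by any single one. In the mouse, CD150 (Slamf1) is carried by stem cells and lost as multipotent progenitors form, while CD48 appears as they leave the stem cell state; EPCR (Procr), ESAM and ROBO4 are shared by stem cells and endothelial cells, and FGD5, an intracellular exchange factor for the GTPase CDC42, is used to mark stem cells by reporter genes. CD34 is found on multipotent and myeloid progenitors and is part of the usual CMP gate, and prominin 1 (CD133, Prom1) is a membrane protein of many progenitor types.

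The members divided into those with lower signals in high-ROS CMP and those whose groups overlapped. All 3 Slamf1 probe sets, Robo4 and Fgd5 had groups that did not overlap, each with the lower signals in high-ROS CMP; Esam had a lower mean there with groups that overlapped. Cd48, Cd34, Prom1 and Procr had mean log2 signals that were slightly or moderately higher in high-ROS CMP, again with overlapping groups (for Procr the mean of the linear signals was the lower, 61.3 against 62.6). No member probe set passed over all 45037 non-control probe sets at an adjusted p under 0.05 (limma, Benjamini-Hochberg; 0 of 10, against 10 called in all, 0.0222% of probe sets, with 0.02% lower and 0.00222% higher). Of the 10, 6 had a lower and 4 a higher mean log2 signal, where 49.7% of all probe sets were lower. This split coincided with brightness. By mean signal the 6 lower ones lay above 32.1% to 43.2% of all probe sets, and the 4 higher ones above 56.4% to 96.6%. The part of brightness in the split was not tested. At an unadjusted p under 0.05, 5 of the 10 were lower and 0 higher, where 3.57% of all probe sets were lower and 3.39% higher. Those 5 were also the ones with groups that did not overlap, against 5.95% of all probe sets in the lower and 6.72% in the higher direction. Because 3 of the 5 read 1 gene, the count by gene is 3 of 8, against 5.32% of the 18193 genes on their brightest probe set; 0 of 8 were apart in the higher direction, against 8.06%. By unadjusted p it is again 3 of 8 lower and 0 higher, against 3.20% and 4.25% of genes. The median log2 fold change was -0.61 over the 10 probe sets and -0.26 over the brightest probe set of the 8 genes, against 0.00183 over all probe sets and 0.019 over all genes. These counts describe genes that were chosen with earlier results of the same arrays known.

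**Figure D1:**
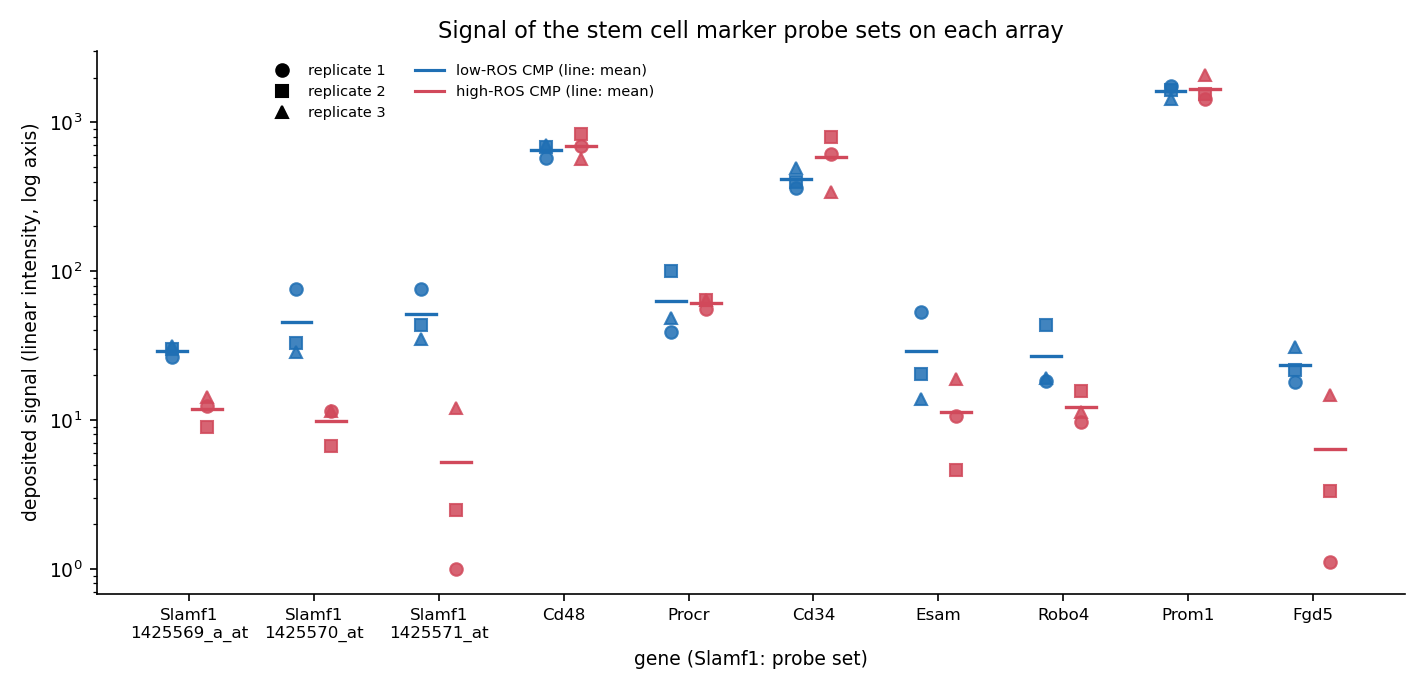
Deposited signal (linear intensity on a log axis) of the 10 probe sets on each of the 6 arrays; blue marks low-ROS and red high-ROS CMP, marker shapes give the replicate number and short lines the group means; heights are to be read within a probe set. The colours lie apart for the 3 Slamf1 probe sets, Robo4 and Fgd5 and overlap for Cd48, Procr, Cd34, Esam and Prom1.

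The arrays were alike in scale and had no detection calls. Median signals lay between 40.35 and 42.5. The Gapdh 3' to 5' ratio, a measure of RNA integrity and labelling, was 2.54 to 3.19 on the low-ROS and 2.997 to 4.53 on the high-ROS arrays, highest on high-ROS replicate 3. The same ratio for Actb differed little, at 0.976 to 1.06 over all arrays, so the spread of the Gapdh ratio was not seen on both genes. The Gapdh ratio ran partly with the group, so fits below that use it as a covariate cannot fully separate it from ROS. Of the markers of the gate, Kit, Cd34, Fcgr3 and Fcgr2b were all above the median signal on every array. So was Il7r (666 to 835), whose product is usually absent from gated CMP, and none of the 5 passed. Lying above the median does not single out CMP, since 0 of 9 lymphoid markers had means under it in both groups. Ly6a, also listed for the gate, was not measured. Levels of different genes are not ranked, since probe sets differ in how strongly they hybridise; a signal is set against the median or lower quartile of its array only to show how near it lies to the dim end, and a low one is called dim rather than absent. Having 3 arrays a group limits precision throughout.

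The stretches upstream of Slamf1, Robo4 and Fgd5, the members whose groups did not overlap, are shown so that the letters read by transcription factors of stem cells can be seen. They come from RefSeq (GRCm38.p6), which held an entry for 7 of the 8 members, and each is the part of the 250 bases before an annotated start that precedes the gene's first annotated base. Capitals mark matches, on either strand, to 4 sets of letters: GATAA (the core read by GATA factors), AGGAAG (ETS factors), TGTGGT (Runx factors) and CAGCTG (an E-box).
Slamf1 (chr1:171766882-171767130, + strand): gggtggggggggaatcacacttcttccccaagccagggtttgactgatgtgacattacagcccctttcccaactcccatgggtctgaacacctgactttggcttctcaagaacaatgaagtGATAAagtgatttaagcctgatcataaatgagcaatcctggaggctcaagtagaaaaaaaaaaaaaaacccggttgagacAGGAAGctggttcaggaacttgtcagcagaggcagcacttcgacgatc
Robo4 (chr9:37401722-37401901, + strand): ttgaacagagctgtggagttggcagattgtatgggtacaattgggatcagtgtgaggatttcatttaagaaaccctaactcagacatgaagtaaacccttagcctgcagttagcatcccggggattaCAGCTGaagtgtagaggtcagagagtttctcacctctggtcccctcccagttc
Fgd5 (chr6:91978715-91978826, + strand): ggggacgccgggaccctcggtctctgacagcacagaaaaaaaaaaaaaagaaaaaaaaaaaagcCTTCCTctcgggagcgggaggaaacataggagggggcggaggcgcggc
Slamf1 held GATAA and AGGAAG, which begin 129 and 49 bases before its start. Robo4 held CAGCTG, 123 bases before, and AGGAAG, 49 bases before and thus past the printed stretch. Fgd5 held AGGAAG on the other strand, 186 bases before. Among 32851 promoters of the same 250 bases, GATAA was found in 22.6%, AGGAAG in 29.5%, TGTGGT in 14.05% and CAGCTG in 13.0%. AGGAAG was also present upstream of Cd34 and at the second start of Prom1, whose groups overlapped; such a match is a run of letters in a window, not a site.

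Slamf1 encodes CD150, a receptor that binds itself on neighbouring cells. Signals are listed below in the order of the replicate numbers, low-ROS arrays first. The brightest Slamf1 probe set (Entrez Gene 27218) gave 76.1, 43.9 and 35.05 against 1, 2.50 and 12.1. Every low-ROS array was above every high-ROS array, and 2 of the 3 high-ROS signals were under the lower quartile of all probe sets (9.42 to 10.2 by array). The means were 51.7 ± 21.6 (SD, n = 3) and 5.19 ± 6.01, a log2 fold change of -1.66 on the scale of signal plus a pseudocount of 16 (SE 0.273, 95% interval -2.27 to -1.06, unadjusted p = 8.57e-05, adjusted p = 0.127, limma). It ranked 30 of 45037 probe sets by p, the highest rank of any member.

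The other probe sets of Slamf1 read the same gene in the same RNA and are no independent support. They show how far the signal depends on the probes. The next brightest gave 76.1, 33.0 and 28.7 against 11.5, 6.66 and 11.6, with a log2 fold change of -1.18 and an adjusted p of 0.505 (SE 0.277, limma). The dimmest gave 26.5, 29.8 and 31.5 against 12.4, 9.02 and 14.3, with -0.70 and an adjusted p of 0.597 (SE 0.183, limma). The groups were apart on both, and low-ROS replicate 1 was high on 2 of the 3 probe sets but lowest of its group on the third. At signals this dim the size depends on the pseudocount: on the brightest probe set it was -3.47 with a pseudocount of 1 and -0.73 with 64. When arrays were weighted by quality, this probe set passed, at an adjusted p of 0.0327 and a log2 fold change of -1.68; adjusted over the brightest probe set of each gene it had 0.0600. Over 18 alternative settings its adjusted p ranged from 0.0327 to 0.770.

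Cd48, the GPI-anchored partner of CD244 in the same family, was bright in both groups. Its signals (Entrez Gene 12506) were 580, 684 and 707 against 693, 835 and 568. The highest and the lowest value were both high-ROS arrays, so the groups overlapped fully. The means were 657 ± 67.9 (SD, n = 3) and 699 ± 134, a log2 fold change of 0.075 (95% interval -0.28 to 0.43, adjusted p = 0.945, limma). The value was -0.011 when low-ROS replicate 1 was left out and -0.060 when high-ROS replicate 2 was.

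Stem cells are sorted as positive for CD150 and negative for CD48, so both genes were also read against each other within each array. The log2 signal of Slamf1 minus that of Cd48, whose level has no meaning between probe sets, was -2.69, -3.55 and -3.82 against -5.38, -5.52 and -4.38. It was lower on all 3 high-ROS arrays, with a difference of group means of -1.74 (group means -3.36 ± 0.590 and -5.09 ± 0.625, SD, n = 3; exact 2-sided permutation p = 0.1, the smallest that 3 arrays against 3 can give). Of the pair, Slamf1 alone had -1.66 and Cd48 alone 0.075 in the fit.

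None of the measured relatives of both genes separated the groups. Of 8 other SLAM family genes and adaptors measured, 4 had a lower and 4 a higher mean in high-ROS CMP, and 0 passed (0 also at an unadjusted p under 0.05, limma). Their median log2 fold change was 0.055. On chromosome 1 RefSeq places Cd48 and Slamf1 with 1 protein-coding entry, Tma7-ps, between them. Slamf7 and Ly9 lie next to Cd48, and Cd84 and Slamf6 next to Slamf1. The positions of the other genes of this list were not read. Cd84, a receptor of platelets and myeloid cells, had signals of 523, 513 and 447 against 582, 437 and 606, and Slamf6 had 100.1, 197 and 173 against 130, 221 and 117. Both neighbours had overlapping groups, with log2 fold changes of 0.12 for Cd84 and -0.0079 for Slamf6. The SLAM genes with the smallest p besides Slamf1 were Cd244a, the receptor of CD48 (log2 fold change -0.18, SE 0.151), and Slamf9 (0.31, SE 0.309), followed by the adaptor Sh2d1a (-0.27, SE 0.295). Whether Slamf1 differs from the other genes of this list was not tested beyond the pair with Cd48.

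**Figure D2:**
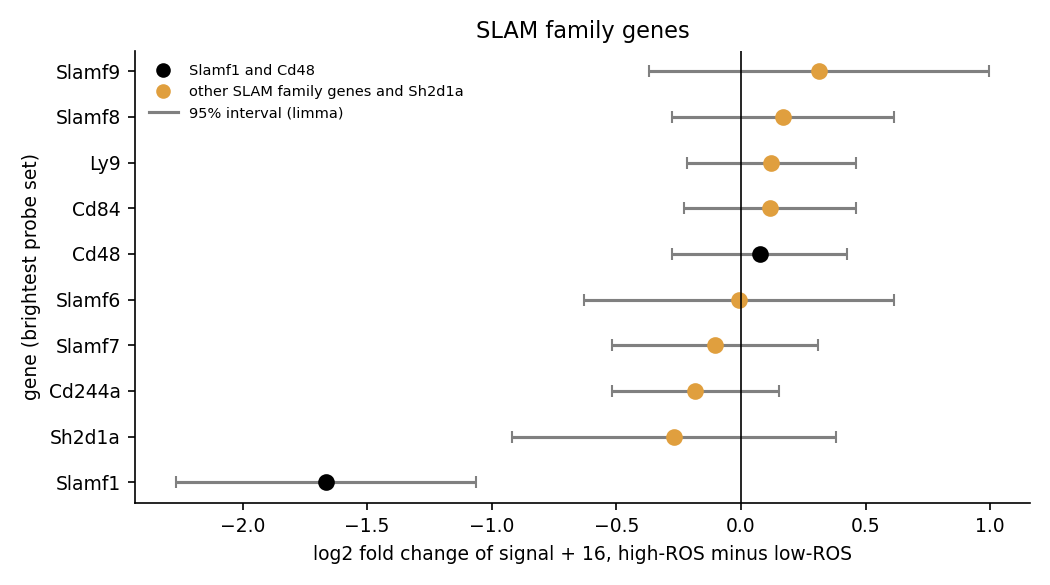
Log2 fold change of signal plus 16 (high-ROS minus low-ROS CMP) with its 95% limma interval, not widened for the number of genes, for the 10 measured SLAM family genes and adaptors on their brightest probe set, 3 arrays a group; black marks Slamf1 and Cd48. Slamf1 lies at -1.66, and the other 9 lie between -0.27 and 0.31 with intervals that include 0.

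Procr encodes EPCR, the receptor that presents protein C to thrombin for activation and holds stem cells in the marrow. Its probe set (Entrez Gene 19124) gave 39.2, 100.2 and 48.5 against 56.0, 63.7 and 64.3. The 3 high-ROS arrays lay close together inside the range of the low-ROS arrays, which low-ROS replicate 2 stretched. The log2 fold change was 0.052 (SE 0.284, 95% interval -0.58 to 0.68, adjusted p = 0.980, limma), moving to 0.37 when low-ROS replicate 2 was left out and to -0.16 when low-ROS replicate 1 was. Low-ROS replicate 2 also had the highest signal of 4 of 9 stromal markers (Col1a1, Col1a2, Sparc and Cxcl12), while the other 5 peaked elsewhere. The collagen gene Col1a1 had 826 there against 49.1 to 441 on the other arrays. Cxcl12 was nearly level, at 210 against 209 on high-ROS replicate 2, and its next probe set peaked on the latter (98.3 against 62.6). The part of these stromal signals in the Procr value was not tested. Of 8 other genes of the protein C pathway, 1 fell, 0 rose and 7 did not pass: F2r, the thrombin receptor PAR1 through which activated protein C signals on EPCR-bearing cells, had 1237, 1046 and 1187 against 265, 271 and 470 (log2 fold change -1.78, SE 0.202, adjusted p = 0.0167, limma). Its other probe set gave -1.82 (SE 0.202). Thrombomodulin, Thbd, which binds thrombin beside EPCR, showed -0.19 (SE 0.187), Pros1, the cofactor protein S, 0.42 (SE 0.224) and the integrin gene Itgam -0.22 (SE 0.189).

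Cd34 encodes the sialomucin by which CMP are gated. Its signals (Entrez Gene 12490) were 360, 395 and 497 against 610, 801 and 341. High-ROS replicates 1 and 2 were above all low-ROS arrays, and high-ROS replicate 3 was the lowest of all 6. The means were 417 ± 71.3 (SD, n = 3) and 584 ± 231, a log2 fold change of 0.40 (SE 0.262, 95% interval -0.18 to 0.98, adjusted p = 0.778, limma). Its size rested on single arrays, at 0.73 with high-ROS replicate 3 left out and 0.14 with high-ROS replicate 2 left out. High-ROS replicate 3 was also the array with the highest Gapdh ratio, and with that ratio as a covariate the Cd34 value was 1.07 (adjusted p = 0.325, limma). Because the ratio runs partly with the group, this fit cannot tell the part of either. The sign of the Cd34 value was positive in all 19 alternative settings, several of which leave the fold change unchanged. Of 5 other genes of the CD34 family and its partners, 3 were lower and 2 higher and 0 passed (0 at an unadjusted p under 0.05, limma); Spn, the sialomucin CD43, showed -0.15 on the log2 scale (SE 0.101), and the CD34 relative Podxl, dim on all arrays, 0.26 (SE 0.224).

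Prom1, the prominin that sits in membrane protrusions, was well above the median signal on every array. It gave 1769, 1650 and 1439 against 1439, 1557 and 2069 (Entrez Gene 19126). The means, 1619 ± 167 (SD, n = 3) and 1688 ± 335, differed by less than the spread within either group, with a log2 fold change of 0.047 (SE 0.144, 95% interval -0.27 to 0.36, adjusted p = 0.962, limma). Its highest value fell on high-ROS replicate 3, where Cd34 was lowest, and the sign turned with the Gapdh ratio as a covariate (-0.23) and when high-ROS replicate 3 was left out (-0.11). The other prominin, Prom2, was dim, at 57.4, 36.9 and 28.2 against 46.7, 38.4 and 26.3 (log2 fold change -0.083, SE 0.260).

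Esam encodes an adhesion molecule of endothelial and platelet junctions that is also carried by stem cells. Its signals were 53.2, 20.35 and 13.8 against 10.6, 4.62 and 18.8 (Entrez Gene 69524). Low-ROS replicate 1 stood above all others, and high-ROS replicate 3 lay above low-ROS replicate 3. The probe set was dim: 1 low-ROS and 0 high-ROS arrays were above the median signal. The log2 fold change was -0.66 (SE 0.310, 95% interval -1.34 to 0.027, adjusted p = 0.718, limma), and -0.30 without low-ROS replicate 1. It was -1.31 with the Gapdh ratio as a covariate, -1.24 with a pseudocount of 1 and -0.29 with 64. Of 10 other junctional adhesion molecules and partners, 4 were lower and 6 higher, and 0 passed (0 at an unadjusted p under 0.05, limma). Jam2, a dim junctional molecule, had groups that did not overlap (17.7, 32.6 and 15.2 against 12.4, 14.5 and 10.7; log2 fold change -0.38, SE 0.207), but its 4 other probe sets overlapped, at -0.15 to 0.27, while Cdh5, the endothelial cadherin, had 0.37 (SE 0.255) and the scaffold Tjp1 -0.37 (SE 0.284).

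Robo4 is the member of the Roundabout receptors found on endothelium and stem cells, where it acts in vessel stability and in holding stem cells in the marrow. It gave 18.3, 43.8 and 19.3 against 9.76, 15.7 and 11.3 (Entrez Gene 74144). The groups did not overlap, but the gap between them, from 15.7 to 18.3, was small. These signals were dim: 1 low-ROS and 0 high-ROS arrays were above the median. The log2 fold change was -0.57 (SE 0.240, 95% interval -1.09 to -0.037, unadjusted p = 0.0383, adjusted p = 0.707, limma), and -0.31 without low-ROS replicate 2. That array had the highest signal of 4 of 9 stromal markers (Col1a1, Col1a2, Sparc and, nearly level, Cxcl12), while the rest peaked elsewhere. The part of these markers in the Robo4 value was not tested. With a pseudocount of 1 the Robo4 value was -0.99, and with 64 it was -0.25. Of 11 other genes of Slit and Robo signalling, 5 were lower and 6 higher and 0 passed, with 1 lower and 1 higher at an unadjusted p under 0.05 (limma). The 1 lower was Robo3, a Roundabout receptor that lies next to Robo4 on chromosome 9, with 44.2, 59.0 and 34.8 against 17.6, 12.3 and 31.3 (log2 fold change -0.78, SE 0.256, adjusted p = 0.690, limma). Its other, dimmer probe set gave 0.30 (SE 0.253). The ligand Slit2 was higher on its brightest probe set, at 15.6, 12.8 and 10.4 against 21.8, 20.5 and 26.1, all dim (log2 fold change 0.43, SE 0.178), with -0.13 and -0.076 on the others, and Cxcr4, the chemokine receptor of marrow retention, had -0.099 (SE 0.077) from signals of 4662 to 5370. Robo3 and Msantd2 lie between Robo4 and Esam on chromosome 9, and Msantd2 had overlapping groups and a log2 fold change of 0.26.

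Fgd5, the exchange factor for CDC42, was dim in both groups. It gave 18.02, 21.7 and 31.0 against 1.11, 3.34 and 14.75 (Entrez Gene 232237). The groups did not overlap, 2 of the 3 high-ROS signals were under the lower quartile of all probe sets, and even the low-ROS signals were under the median. The means were 23.6 ± 6.69 (SD, n = 3) and 6.40 ± 7.32, a log2 fold change of -0.86 (SE 0.234, 95% interval -1.37 to -0.34, unadjusted p = 0.00391, adjusted p = 0.609, limma), which was -2.19 with a pseudocount of 1 and -0.32 with 64. Its relatives went both ways. Of 9 other FGD exchange factors and effectors of CDC42, 5 were lower and 4 higher and 0 passed, with 1 lower and 1 higher at an unadjusted p under 0.05 (limma). Fgd2, an exchange factor of myeloid and B cells, had 65.04, 69.6 and 55.1 against 132, 116 and 136 (log2 fold change 0.87, SE 0.197, adjusted p = 0.457, limma). Fgd3 had 652, 270 and 352 against 222, 200 and 147 (log2 fold change -1.02, SE 0.282, adjusted p = 0.609, limma), and -0.72 and -0.065 on its other probe sets. Both had groups that did not overlap on their brightest probe sets. Fgd6 had -0.77 (SE 0.379; 0.18 on its other probe set) with overlapping groups, and Cdc42 itself -0.085 (SE 0.079).

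**Figure D3:**
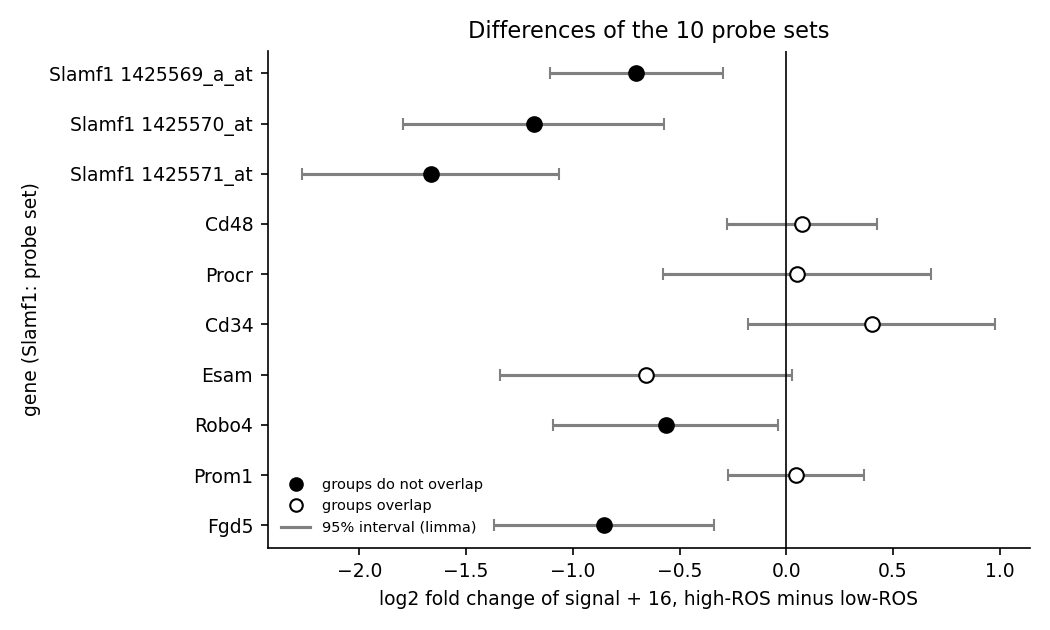
Log2 fold change of signal plus 16 (high-ROS minus low-ROS CMP) of the 10 probe sets with 95% limma intervals, not widened for the number of probe sets, 3 arrays a group; filled circles mark groups that do not overlap. The 3 Slamf1 probe sets, Robo4 and Fgd5 have intervals below 0, Esam reaches 0.027, and Cd48, Procr, Cd34 and Prom1 span 0.

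Other genes of stem and multipotent progenitors were read beside the members. Their list was also chosen with earlier results of the same arrays known, so its counts are a description and no support. Of 29 measured genes that are not among the 8, 23 had a lower and 6 a higher mean in high-ROS CMP, where 46.0% of all genes were lower; 2 fell, 0 rose and 27 did not pass (5 of 18193 genes, 0.0275%, were called lower on their brightest probe set). At an unadjusted p under 0.05, 9 were lower and 0 higher, against 3.20% of all genes in the lower direction, and the median log2 fold change was -0.24. Those that fell were Angpt1, the ligand of the receptor TEK, and Gata2, a transcription factor needed by stem cells. Angpt1 had 933, 958 and 914 against 436, 429 and 413 (log2 fold change -1.11, SE 0.118, adjusted p = 0.0147, limma) and -1.54 on its other probe set. Gata2 had 593, 604 and 594 against 210, 240 and 168 (log2 fold change -1.48, SE 0.160, adjusted p = 0.0147, limma), and its other probe set -0.72 (SE 0.158). Tek had 389, 160 and 236 against 28.9, 45.0 and 73.2, a log2 fold change of -2.07 (SE 0.328) that did not pass (adjusted p = 0.116, limma). Of the 29, Kit, Itga2b, Vwf, Tie1 and Sox17 also stand in other lists described here.

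**Figure D4:**
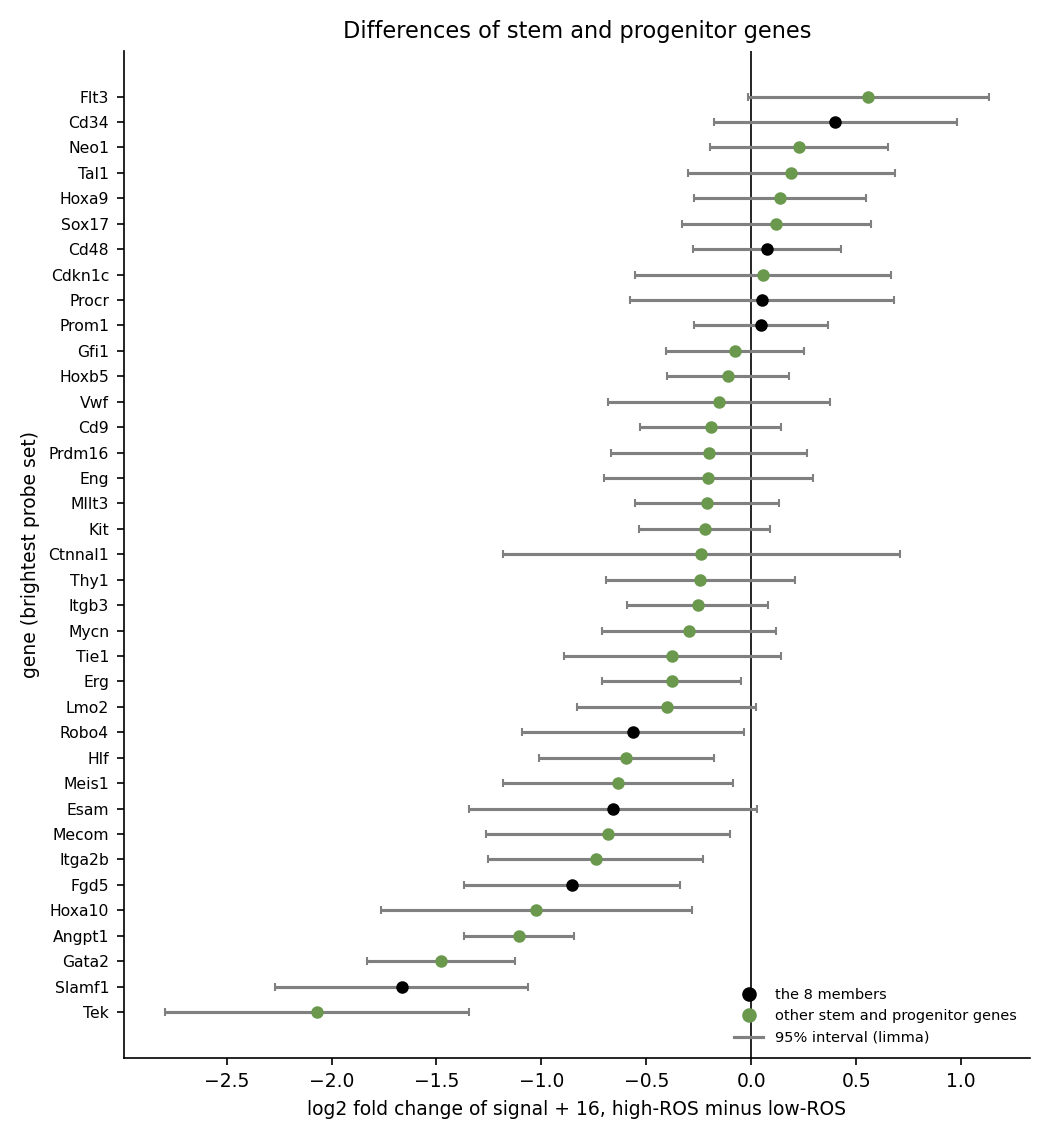
Log2 fold change of signal plus 16 (high-ROS minus low-ROS CMP) with its 95% limma interval, not widened for the number of genes, for the brightest probe set of the 8 members (black) and of 29 other stem and progenitor genes (green), 3 arrays a group, sorted by the fold change. Slamf1 at -1.66 stands beside Tek (-2.07), Gata2 (-1.48) and Angpt1 (-1.11) at the low end, and Cd34 at 0.40 next to Flt3 (0.56) at the high end.

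Several members are also genes of other cells, whose markers were read beside them. Of 18 endothelial markers 10 were lower and 8 higher and 0 passed (2 lower and 1 higher at an unadjusted p under 0.05, limma), and their summed signal ranged from 967 to 1104 in low-ROS and from 1007 to 1117 in high-ROS CMP. Of the 18, 11 had means under the median signal in both groups. The others were not dim in this sense. Among them were Egfl7 (146 to 214 over the arrays), Pecam1 (143 to 232), Icam2 (124 to 154) and Ece1 (138 to 186). Of the dim ones, Cldn5 (7.81 to 15.98) was under the median signal on all arrays. Cdh5 (12.96 to 41.01) was under it on all but high-ROS replicate 3, where it lay just above the median of 40.9. The receptor gene Kdr was dim and lower on all 3 high-ROS arrays, at 13.95, 25.6 and 19.7 against 1.26, 11.4 and 2.15 (log2 fold change -0.79, SE 0.208). Mmrn2 had -0.65 (SE 0.243) and Egfl7 0.41 (SE 0.161) on their brightest probe sets, with values of either sign on their others. Summed stromal markers, 9 genes, ranged from 523 to 1896 in low-ROS and from 868 to 1245 in high-ROS CMP, with 8 of 9 higher, 0 passing and 1 higher at an unadjusted p under 0.05 (limma); Pdgfra had 0.53 (SE 0.197; -0.26, with groups apart, and -0.030 on its other probe sets), Adipoq 0.56 (SE 0.365) and Cxcl12 0.38 (SE 0.298).

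Summed signals of 3 blood lineages did not overlap between the groups, though each sum is set mostly by its brightest genes. The 9 megakaryocyte markers, 6 lower and 3 higher, summed to 1506 to 1525 in low-ROS and 821 to 1148 in high-ROS CMP. Without Pf4 the sums overlapped, at 390 to 447 and 254 to 396; this sum was added after seeing the data. The smallest p were those of Pf4 at -0.73 (SE 0.143), Rab27b at -1.25 (SE 0.264) and Itga2b at -0.74 (SE 0.232), while Ppbp, Tubb1 and Gp1bb had higher means (0.34, 0.21 and 0.089). The 8 erythroid markers, 8 lower and 0 higher, summed to 15834 to 16135 and 12600 to 14407, with Slc4a1 at -0.30 (SE 0.091), Car2 at -0.21 (SE 0.095) and Epor at -0.34 (SE 0.185). The 10 granulocyte-monocyte markers, 1 lower (Csf3r, -0.31) and 9 higher, summed to 19341 to 20286 and 21336 to 23054, with Irf8 at 0.67 (SE 0.176; 0.25 with overlapping groups on its other probe set), Csf1r at 0.49 (SE 0.139) and Ctsg at 0.31 (SE 0.106). Without their brightest genes, Slc4a1 and Mpo, the erythroid and granulocyte-monocyte sums still did not overlap (9735 to 10008 and 8250 to 9157; 12798 to 13441 and 14642 to 15560). The part of these lineages in the member values was not tested. No marker of these 3 lists passed (0 of 27), with 5 lower and 3 higher at an unadjusted p under 0.05 (limma). Lymphoid markers (9 genes, 3284 to 3848 and 3388 to 3650) and those of mast cells and basophils (6 genes, 2789 to 2928 and 2629 to 2861) overlapped between the groups, with 0 passing in either (0 at an unadjusted p under 0.05, limma); the smallest p were those of Cd3e (0.27), Dntt (0.20), Cd3g (0.14), Hdc (-0.11) and Mcpt8 (-0.17), given as log2 fold changes. Among the gate genes, Kit had -0.22 (SE 0.141) and -0.82 on its other probe set, with groups apart on both, and Fcgr3 had 0.023 (SE 0.094). In RNA of sorted populations, fewer cells of a type and less RNA per cell cannot be told apart.

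The genes whose pattern over the 6 arrays was most like that of a member were named by Pearson's r of log2 signal plus 16, among 8157 genes with a mean signal of at least 100. The points share their RNA and array, and among so many genes a close match over 6 points is easily found. For Slamf1 they were Slain1 (r = 0.996) and Tgfb1 (0.988), for Fgd5 Skil (0.991) and Epg5 (0.969), for Robo4 Egr1 (0.996) and Brk1 (0.985), and for Esam Camk1 (0.996) and Rab4a (0.992). Tgfb1, the growth factor TGF-beta 1, gave 392, 315 and 276 against 183, 180 and 242, and so had the order of groups seen for Slamf1 at a signal well above the median. For Cd34 they were Fancd2 (0.994) and Zfp512 (0.990), for Cd48 Mpp7 (0.984) and Obi1 (0.984), for Procr Spib (0.992) and Snx5 (0.983), and for Prom1 Zfp266 (0.992) and B3galt6 (0.986). Fancd2, a DNA repair protein, gave 131, 144 and 169 against 182, 218 and 133, with high-ROS replicate 3 below the others of its group as for Cd34.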

How the data were processed

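Per the labels' protocols, a NuGEN Ovation kit amplified the RNA of the sorted cells and biotin labelling followed. The deposited values are 1 linear intensity per probe set and array, from 0.8 to 15899; the sources used here do not give how the authors summarised and scaled them. Probe sets were named from the platform's annotation table: of 45037 non-control probe sets 34945 had 1 symbol, 932 several and 9160 none. Entrez identifiers of 34741 matched RefSeq (GRCm38.p6), and 0 symbols changed. The members and gene lists were chosen with earlier results of these data known.

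A pseudocount of 16 was added before log2, with no further normalization. The groups were compared in limma 3.58.1 (R 4.3.3) with lmFit and trended eBayes, 2-sided, 1 test per probe set, adjusted by Benjamini-Hochberg over all 45037 at a threshold of 0.05, with 4 residual and 10.7 total degrees of freedom. A gene of a list was read on its probe set of highest mean signal; lists have counts and medians only. Of 43 genes named from lists, 24 had over 1 probe set and 7 of these a probe set of opposite sign (Egfl7, Fgd6, Jam2, Mmrn2, Pdgfra, Robo3, Slit2). Named were all member probe sets, the 3 genes of smallest p in each list (2 in lists of under 8 genes) and the 2 genes most like each member. Cd84, Slamf6, Thbd, Cdc42, Msantd2, Cldn5, Pecam1, Icam2, Ece1, Col1a1, Col1a2 and Sparc were named after seeing their values. So were Il7r, Fcgr2b, Csf3r, Ppbp, Tubb1, Gp1bb, Mpo and Flt3. The fit was tested on simulated data in which only brighter probe sets were changed. It does not cover signals as dim as those of Slamf1, Esam, Robo4 and Fgd5. Alternatives were no trend, filters on dim or unnamed probe sets, 1 value per gene (brightest or mean), quantile normalization, median centring, pseudocounts of 1 and 64, a replicate block, array weights, the Gapdh ratio as a covariate, an adjusted p under 0.1, and leaving out arrays. Figures were drawn with matplotlib 3.10.9 in Python 3.11.15.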

Additional observations from a re-analysis of the deposited data

How the results depend on the processing

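Member probe sets kept 0 calls in all settings but array weights, which called 1 (the brightest of Slamf1, lower). The filter on dim probe sets left out those of Slamf1, Esam, Robo4 and Fgd5, so it could not call them. The 10 calls over all probe sets became 0 with no mean-variance trend (limma; 1478 lower and 1592 higher at an unadjusted p under 0.05), 5 with the replicate block, 6 with the Gapdh ratio as a covariate, 6 without both low-ROS replicate 1 and high-ROS replicate 3, 33 with array weights (23 lower and 10 higher), 24 at an adjusted p under 0.1, and 3 to 8 on leaving out 1 array (8 if it was high-ROS replicate 3, 5 if high-ROS replicate 2, 3 if any other). The 3 other list genes called (Angpt1, Gata2, F2r) became 0 with no trend (11 lower and 2 higher at an unadjusted p under 0.05), 1 with the block, 1 with the Gapdh ratio, 1 without both arrays, and 0 to 3 on leaving out 1 array: 3 if it was high-ROS replicate 3, 1 if high-ROS replicate 2 and 0 if any other (10 to 12 lower at an unadjusted p under 0.05). The cause was not tested. Slamf1, Esam, Robo4, Fgd5 and Cd34 kept their sign in every setting run. No trend, the filters, the brightest probe set and the replicate block leave the fold change unchanged and could not turn a sign. Procr turned to -0.079 with array weights and -0.19 without both arrays, and ranged from -0.16 to 0.37 on leaving out 1 array. Prom1 turned to -0.018 with array weights, -0.23 with the Gapdh ratio and -0.042 without both arrays, and ranged from -0.11 to 0.15 on leaving out 1; Cd48 ranged from -0.060 to 0.21. Slamf1 minus Cd48 stayed negative in 14 settings, from -3.55 (pseudocount 1) to -0.78 (dimmest Slamf1 probe set). Median centring and the replicate block could not change this difference, which was -1.74 in both as in the main reading. Whether replicate numbers pair samples cannot be told from so few arrays. Same-numbered arrays' deviations correlated weakly, at 0.098, 0.086 and 0.0092. For replicates 1 and 2 the same-numbered pair correlated best, while low-ROS replicate 3 correlated best with high-ROS replicate 2 (0.044).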
